A study of Mus musculus with 15 samples.

Results

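Livers of newborn mice labelled with the same mutation but differed in blood glucose were compared: 7 hypoglycaemic KO pups against 3 normoglycaemic KO pups, 10 of the 15 libraries of the study. The pups were taken by their labels. All 10 were labelled as carrying a maternally inherited deletion that removes the miR-379/miR-410 microRNA cluster (1 library, described below, goes against this), were of the C57BL/6J background and were studied on postnatal day 1; 5 wild-type littermates (blood glucose 50 to 72 mg/dl) completed the series. Blood glucose was 9, 16, 12, 33, 14, 26 and 29 mg/dl in hypoglycaemic KO replicates 1 to 7, against 44, 56 and 44 mg/dl in normoglycaemic KO replicates 1 to 3. The submitters call the first group severely and the second mildly hypoglycaemic, so that "normoglycaemic" is relative. The glucose values themselves describe how the pups were sorted and are no result. Neither the ends of the deletion nor litter, sex or feeding before sampling could be taken from the labels. The Y-linked gene Ddx3y lay above 0 in 2 of 7 hypoglycaemic KO, 2 of 3 normoglycaemic KO and 1 of 5 wild-type livers, so the sexes were not balanced between the KO groups, and lower glucose in these pups cannot be told apart from anything else that went with it.

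The liver keeps blood glucose up after birth, when the supply through the placenta ends. It first breaks down glycogen and then makes glucose from lactate, glycerol and amino acids. Low insulin, glucagon acting through cyclic AMP, and glucocorticoids acting through their nuclear receptor switch on the genes of this work, while insulin holds them down by keeping FOXO transcription factors out of the nucleus. Insulin also switches on genes of fat synthesis. The deleted cluster is expressed from the maternal chromosome of the imprinted Dlk1-Dio3 domain, so that a deletion inherited from the mother removes its microRNAs.

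The deleted cluster is shown first, since both KO groups are labelled as lacking it. In RefSeq's GRCm38.p6 annotation the microRNAs that name it lie on the plus strand of chromosome 12, miR-379-5p at chr12:109709065-109709085 and miR-410-3p at chr12:109743764-109743784. RefSeq lists 71 mature microRNAs with 64 distinct seeds from 38 genes over these 34.7 kb. Capitals mark the seed, bases 2 to 8, which pairs with target RNAs.
mmu-miR-379-5p: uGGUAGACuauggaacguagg
mmu-miR-410-3p: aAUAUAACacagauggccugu

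The second set of sequences holds the promoters of 5 genes that carry the glucose results below: both glycogen-targeting subunits Ppp1r3c and Ppp1r3g, the glucose-releasing enzyme G6pc, the insulin-repressed secreted protein Igfbp1 and Txnip. Each runs from 250 bases before to 50 bases after the RefSeq start on GRCm38.p6, 5′ to 3′ on the gene's strand: Ppp1r3c at chr19:36736555-36736854 (minus), Ppp1r3g at chr13:35967656-35967955 (plus), G6pc at chr11:101367466-101367765 (plus), Igfbp1 at chr11:7197537-7197836 (plus) and Txnip at chr3:96557707-96558006 (plus). In all, 5 motifs were searched on both strands and are in capitals where found: GTAAACA, bound by FOXO factors and present in 3.65% of 32851 promoters of this length; CAAAACA, the insulin response element, in 6.28%; TGACGTCA, the cyclic AMP response element, in 1.79%; ACANNNTGT, bound by the glucocorticoid receptor, in 6.85%; and CACGTG, the E-box, in 7.15%. No pair of these motifs overlapped in the promoters shown.
Ppp1r3c: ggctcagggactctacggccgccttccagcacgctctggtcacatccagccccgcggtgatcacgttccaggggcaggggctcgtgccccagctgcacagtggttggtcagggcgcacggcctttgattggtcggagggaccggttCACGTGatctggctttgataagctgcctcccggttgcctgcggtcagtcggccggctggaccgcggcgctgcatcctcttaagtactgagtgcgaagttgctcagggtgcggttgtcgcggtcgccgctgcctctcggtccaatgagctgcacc
Ppp1r3g: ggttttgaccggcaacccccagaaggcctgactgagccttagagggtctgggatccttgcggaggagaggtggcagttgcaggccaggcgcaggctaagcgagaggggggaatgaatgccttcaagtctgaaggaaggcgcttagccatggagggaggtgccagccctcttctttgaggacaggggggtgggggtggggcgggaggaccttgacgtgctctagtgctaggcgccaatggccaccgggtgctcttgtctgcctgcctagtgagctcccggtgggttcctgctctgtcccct
G6pc: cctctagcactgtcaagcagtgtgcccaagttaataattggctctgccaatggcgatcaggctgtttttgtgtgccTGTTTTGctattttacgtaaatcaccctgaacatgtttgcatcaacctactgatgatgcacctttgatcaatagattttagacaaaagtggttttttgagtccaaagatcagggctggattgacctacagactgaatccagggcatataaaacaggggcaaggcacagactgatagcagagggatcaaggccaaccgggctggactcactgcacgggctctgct
Igfbp1: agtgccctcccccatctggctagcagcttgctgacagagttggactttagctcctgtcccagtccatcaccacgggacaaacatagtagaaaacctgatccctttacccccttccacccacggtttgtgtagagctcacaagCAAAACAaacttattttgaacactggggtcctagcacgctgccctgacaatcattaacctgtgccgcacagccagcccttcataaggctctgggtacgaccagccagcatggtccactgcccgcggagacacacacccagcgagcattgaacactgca
Txnip: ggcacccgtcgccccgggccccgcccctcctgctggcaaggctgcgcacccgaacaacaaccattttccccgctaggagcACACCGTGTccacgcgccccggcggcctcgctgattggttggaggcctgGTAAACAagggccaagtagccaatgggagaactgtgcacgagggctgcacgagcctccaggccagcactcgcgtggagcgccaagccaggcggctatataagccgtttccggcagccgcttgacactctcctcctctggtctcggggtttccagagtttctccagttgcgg
The Ppp1r3c window held an E-box, the G6pc and Igfbp1 windows an insulin response element, and the Txnip window a FOXO motif and a glucocorticoid receptor motif. The Ppp1r3g window held none of the letters searched. The windows of Pck1 and Klf9 were searched as well and are not shown: Pck1 held none, and Klf9 held a FOXO motif. A match is a description of these letters and not a binding site.

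Each liver was hybridised to 1 Agilent 1-colour array. A level is the base-2 logarithm of a probe's processed signal over the array's 75th percentile, so that 0 stands for that percentile. Levels are compared within a gene only. Array quality was read from the spots: 60.0 to 71.6% of spots were well above background in hypoglycaemic KO, against 66.2 to 73.0% in normoglycaemic KO (exact permutation p = 0.35, adjusted p = 0.842 over 4 measures), and KO libraries correlated at 0.970 or more. Liver identity was plain: Alb, the main plasma protein, read 9.93 to 10.17 in hypoglycaemic KO and 10.10 to 10.21 in normoglycaemic KO, beside the fetal protein Afp and the haemoglobin gene Hbb-bt, the mark of the blood-forming cells that newborn liver still holds. Pancreatic acinar transcripts stood apart in 3 libraries: the mean of 24 markers was 1.46 in hypoglycaemic KO replicate 3, 4.34 in normoglycaemic KO replicate 2 and 1.35 in wild-type replicate 2, against at most -0.78 in the other libraries. The labels were checked with Mirg, a non-coding RNA of the deleted region. It read -2.78 to -0.99 in 6 hypoglycaemic KO libraries and -2.56, -2.53 and -2.45 in normoglycaemic KO, against 1.12 to 1.84 in wild type; the library labelled hypoglycaemic KO replicate 2, at 0.89, lay near wild type. That library was kept; without it 0 genes passed the adjustment described next (5313 at an unadjusted p under 0.05).

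Against this background, few single genes passed and many leaned. Of 27599 genes and transcripts tested with limma, 15 (0.0543%) passed a Benjamini-Hochberg adjusted p under 0.05, 6 of them higher (0.0217%) and 9 lower (0.0326%) in hypoglycaemic KO. Of the 15, 4 met the filter on dim probes only through the KO group in which they were high, so that they had to differ, which leaves 11 calls, 4 higher and 7 lower. In all 15 the KO groups did not overlap, as in 8.86% of everything tested, but the calls were picked for this separation and nothing is read from it. At an unadjusted p under 0.05 there were 5352 genes (19.4%), 2578 higher (9.34%) and 2774 lower (10.1%), where 1380 would be expected without any difference. The 9.34% and 10.1% are the shares to set beside each count of list members below. The 15 calls are fragile: leaving out 1 library gave from 0 to 974 calls, every library except wild-type replicate 5 moved the count by more than 1.5 times, and hypoglycaemic KO replicate 4 gave the 974. With the authors' deposited log2 values 8 were called higher and 23 lower. With the slide as a block 0 passed in limma (5395 at an unadjusted p under 0.05), within slide 1 0 passed (2592) and within slide 2 3 passed (2346).

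**Figure D1:**
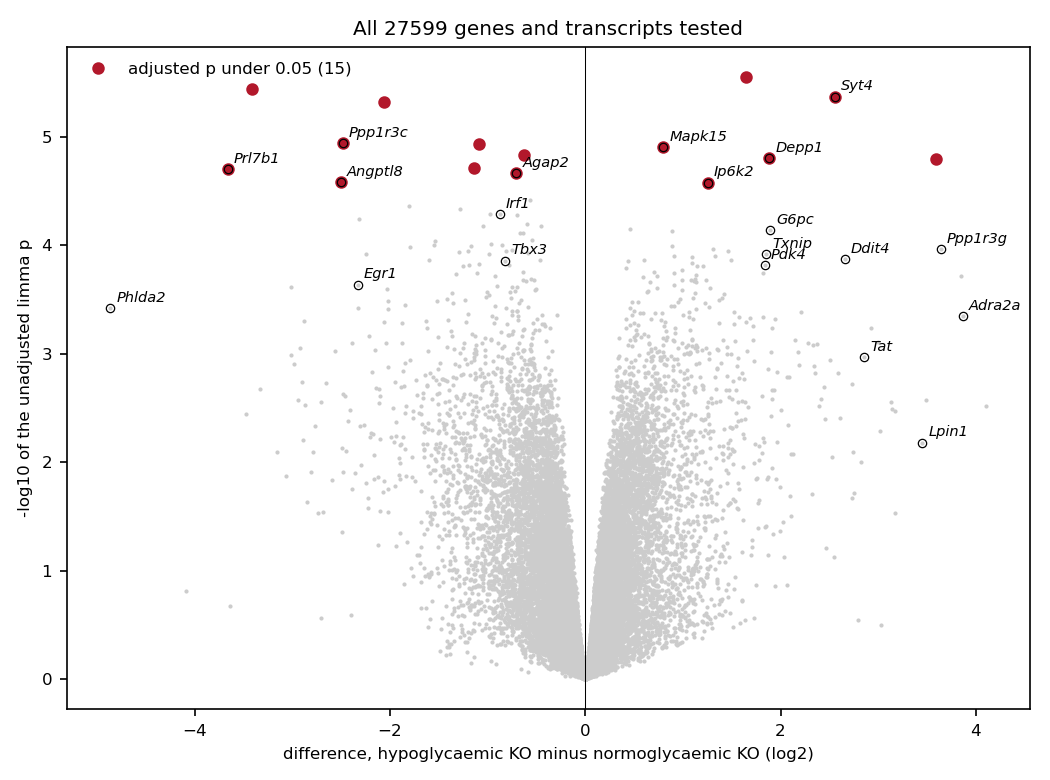
Difference between hypoglycaemic and normoglycaemic KO (log2, x axis) against the negative log10 of the unadjusted limma p (y axis) for all 27599 genes and transcripts, with red points for the 15 of adjusted p under 0.05 (4 of them, Prl7b1 and Syt4 included, tested only because of the group in which they are high) and open circles for named genes. Ppp1r3c, Angptl8 and Prl7b1 lie among the called genes on the left, Depp1, Ip6k2, Mapk15 and Syt4 among those on the right, and Ppp1r3g, Ddit4 and G6pc just below the called ones.

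A call of direct bearing on glucose lay in glycogen storage. Ppp1r3c codes for a subunit that brings protein phosphatase 1 to glycogen, where it activates glycogen synthase. Its probe (chr19:36806457-36806516, mm9) read from -2.10 to -0.06 with a median of -1.54 in hypoglycaemic KO, against 0.92, 1.25 and 1.21 in normoglycaemic KO. The groups were apart, and the wild-type mean, 0.64 ± 0.55 (SD, n = 5), lay between them and nearer to normoglycaemic KO. Ppp1r3c fell by 2.48 ± 0.37 on the log2 scale (SE), to a level 5.59-fold lower, with limma's adjusted p = 0.0443. The highest hypoglycaemic library was replicate 4, the pup with 33 mg/dl.

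A sister subunit lay the other way. Ppp1r3g, which also targets the phosphatase to glycogen and is known to be induced in fasted mouse liver, read 2.45 to 5.49 with a median of 4.96 in hypoglycaemic KO, against 1.17, -0.55 and 2.00 in normoglycaemic KO (probe chr13:36061999-36062058, mm9). All 7 hypoglycaemic livers lay above all 3 normoglycaemic ones, and the lowest were replicates 4 and 6, at 2.45 and 3.42. The difference was 3.64 ± 0.68 (12.5-fold), the wild-type mean was 2.50 ± 0.76 (SD, n = 5), and limma's adjusted p was 0.0642, short of the threshold. The promoters of these opposed genes, shown above, share none of the motifs searched.

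The glycogen list as a whole, both of these included, was divided. Of its 19 members measured, 8 lay above 0 and 11 below with a median difference of -0.07, against 48.7% above 0 and a median of -0.0091 over everything tested; 4 had an unadjusted p under 0.05 on the higher and 3 on the lower side, as did 9.34% and 10.1% of everything tested. Pygl, the liver glycogen phosphorylase that releases glucose units, read 4.97 to 5.49 in hypoglycaemic KO, against 5.59, 5.88 and 5.67 in normoglycaemic KO, a difference of -0.48 ± 0.13 (adjusted p = 0.105). Gckr, a regulatory protein of hepatic glucose use, differed by -1.08 ± 0.29 (adjusted p = 0.101). Gys2, the liver glycogen synthase, differed by -0.21 ± 0.19 (adjusted p = 0.569), with overlapping groups.

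**Figure D2:**
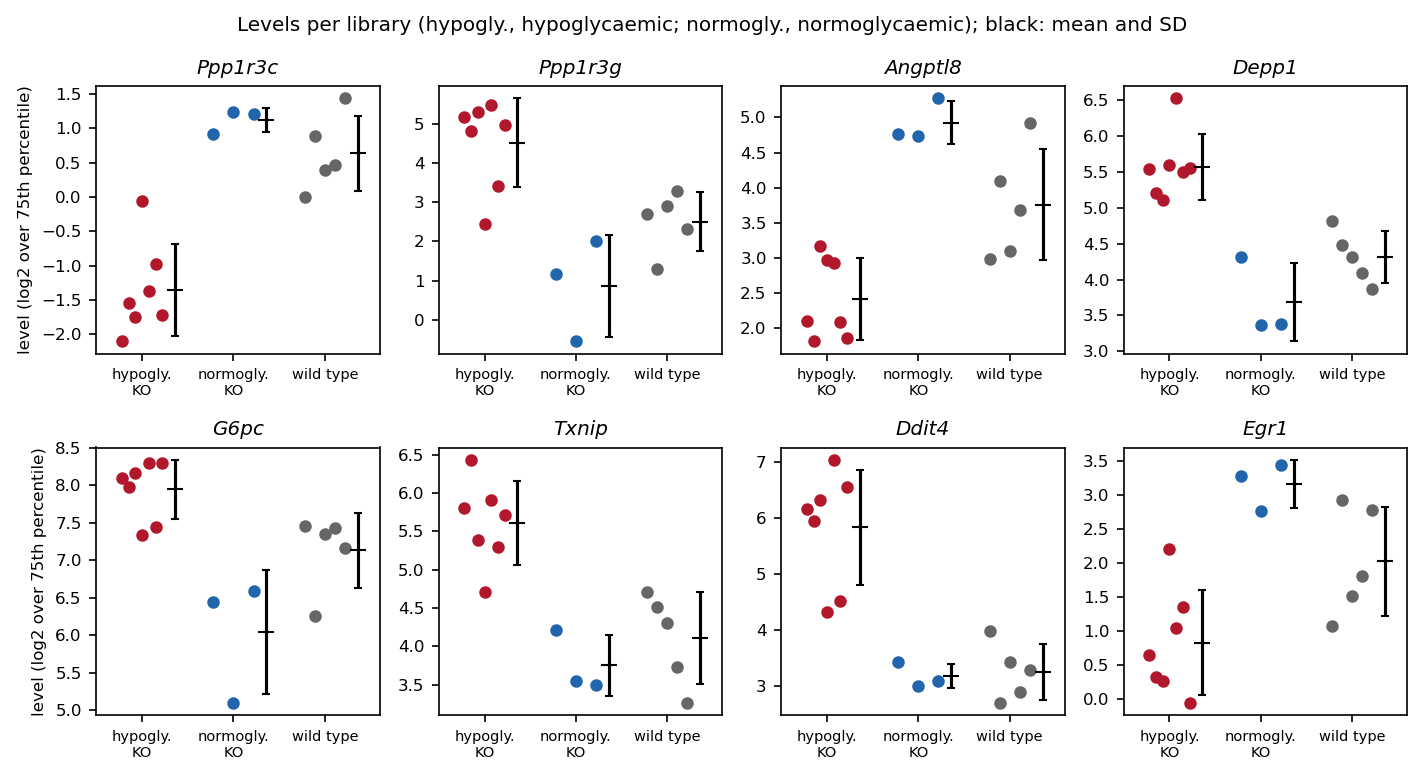
Level of 8 genes (log2 over the array's 75th percentile, y axis) in each library, with hypoglycaemic KO in red (n = 7), normoglycaemic KO in blue (n = 3) and wild type in grey (n = 5); black bars give the mean and SD. Both KO groups are apart in every panel, and the wild-type mean lies between them for all 8 genes. The genes were picked with their results known, so nothing is read from this.

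Genes of glucose release were divided, and none passed the adjustment. G6pc, the enzyme that frees glucose from glucose 6-phosphate in the last step of both glycogen breakdown and gluconeogenesis, read 7.34 to 8.30 with a median of 8.10 in hypoglycaemic KO, against 6.45, 5.10 and 6.60 in normoglycaemic KO. The groups did not overlap, and the difference was 1.90 ± 0.34 (3.72-fold, adjusted p = 0.0642). Pck1, which makes phosphoenolpyruvate and sets the pace of gluconeogenesis, read 7.43 to 8.30, against 7.20, 6.16 and 7.32, a difference of 1.08 ± 0.26 (adjusted p = 0.0868). Ppargc1a, a coactivator that drives both, read 1.73 to 4.30 in hypoglycaemic KO, against 1.57, 0.85 and 2.00 in normoglycaemic KO, and the groups overlapped (1.93 ± 0.51, adjusted p = 0.0972).

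Over the whole list of gluconeogenesis and glucose release, 11 of 16 members lay above 0, 7 with an unadjusted p under 0.05 on the higher side and 3 on the lower, with a median difference of 0.18. Gene lists here share members, so their counts are not separate results. Pck1, Ppargc1a, Tat and Lpin1 are also in the glucagon and glucocorticoid list below. G6pc and Pck1 are in the insulin and FOXO list, and Got1 and Tat in amino acid catabolism. The 3 on the lower side, named after their values were seen, were Gpd1, which interconverts glycerol phosphate and a glycolytic intermediate (-1.64), Ldha, a lactate dehydrogenase subunit (-0.31), and Slc2a2, the liver glucose transporter (-0.32). Without normoglycaemic KO replicate 2, rich in acinar transcripts, Pck1 differed by 0.71. The mean level of the list was 5.41 to 6.13 in hypoglycaemic KO, against 4.84 to 5.35 in normoglycaemic KO.

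Genes that insulin represses and FOXO activates showed the same side. Depp1, a FOXO target that is known to be induced by fasting, was among the calls (probe chr6:116602564-116602623, mm9). It read 5.10 to 6.52 with a median of 5.54 in hypoglycaemic KO, against 4.32, 3.37 and 3.38 in normoglycaemic KO. It rose by 1.88 ± 0.29 (3.69-fold, adjusted p = 0.0443), and all 5 wild-type livers averaged 4.31 ± 0.36 (SD, n = 5).

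Igfbp1, whose product binds IGF in plasma, read 9.63 to 9.90 in hypoglycaemic KO, against 9.28, 8.54 and 9.37 in normoglycaemic KO, 0.73 ± 0.15 higher (adjusted p = 0.0664), and 0.47 higher without normoglycaemic KO replicate 2. Irs2, a docking protein of the insulin receptor, differed by 1.06 ± 0.23 (adjusted p = 0.0773) and Trib3, an inhibitor of the kinase AKT, by 1.82 ± 0.40 (adjusted p = 0.0773), both without overlap. Pdk4, the kinase that keeps pyruvate from being burnt, read 2.75 to 4.50, against 2.45, 1.26 and 1.95 (1.84 ± 0.36, adjusted p = 0.0642). Txnip, an arrestin-family protein that restrains glucose uptake, read 4.71 to 6.43 with a median of 5.71 in hypoglycaemic KO, against 4.21, 3.55 and 3.50 in normoglycaemic KO (1.85 ± 0.35, 3.61-fold, adjusted p = 0.0642). Txnip is known as a gene that high glucose induces through the carbohydrate response, and here its level was higher in the group with less glucose. Of the 23 members of the insulin and FOXO list, 15 lay above 0 (median 0.22), 10 with an unadjusted p under 0.05 on the higher side and 3 on the lower. Srebf1, the lipogenic factor that insulin induces, was on the lower side (-0.87 ± 0.28, adjusted p = 0.132).

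The response to glucagon, cyclic AMP and glucocorticoids had the highest median of the 34 liver lists. Of 32 members, 31 lay above 0, with a median difference of 1.03, 23 at an unadjusted p under 0.05 on the higher side and 1 on the lower; 13 were without overlap on the higher side, where 4.87% of everything tested were, and 0 of its members passed the adjustment in limma. The mean level of the list was 2.95 to 4.38 in hypoglycaemic KO, against 2.33 to 2.84 in normoglycaemic KO and 2.77 to 3.48 in wild type, so the KO groups did not overlap. The median stayed between 0.82 and 1.35 over 31 settings; without normoglycaemic KO replicate 2 it was 0.86 and without the 3 libraries rich in acinar transcripts, a setting added after the data were seen, 0.82.

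Ddit4, an inhibitor of the growth kinase mTOR that glucocorticoids induce, read 4.33 to 7.04 with a median of 6.16 in hypoglycaemic KO, against 3.43, 3.01 and 3.10 in normoglycaemic KO (2.66 ± 0.51, 6.31-fold, adjusted p = 0.0642). Klf9, a transcription factor gene under glucocorticoid and thyroid hormone control, read 2.09 to 3.53, against 1.48, 1.27 and 1.92 (1.46 ± 0.27, adjusted p = 0.0642). Tsc22d3, known as GILZ, differed by 1.41 ± 0.33 (adjusted p = 0.0854), Cebpd by 1.52 ± 0.33 (adjusted p = 0.0769) and Sgk1 by 1.51 ± 0.39 (adjusted p = 0.0971, groups overlapping). Fkbp5, another classical target, differed by only 0.39 ± 0.22 (adjusted p = 0.354).

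Lpin1, a phosphatidate phosphatase that also coactivates PPARA and that fasting induces, lay at separate levels within the hypoglycaemic group. It read 3.94 to 4.45 in 5 of the hypoglycaemic KO livers but -0.76 and 0.07 in replicates 4 and 6, against -0.33, -0.86 and -0.54 in normoglycaemic KO. The same pair of pups was low for Tat and Sds, enzymes that break down tyrosine and serine. Tat read 5.21 and 4.93 in them and 6.91 to 7.36 in the other hypoglycaemic livers, against 4.90, 2.71 and 3.58 in normoglycaemic KO (2.86 ± 0.70, adjusted p = 0.088). Sds read 2.28 and 2.29 in them and 5.03 to 5.67 in the others, against 2.43, 0.41 and 1.22 (3.14 ± 0.86, adjusted p = 0.102).

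These replicates had 33 and 26 mg/dl, while replicate 7, with 29 mg/dl, read like the pups with 9 to 16 mg/dl. For each gene, the 2 hypoglycaemic libraries that lay furthest toward the normoglycaemic side were taken. In the glucagon and glucocorticoid list, replicate 4 was among them in 27 of 32 members and replicate 6 in 28. Both together were in 25 (78.1%), against 18.4% of all genes. The list's mean level was 2.95 and 3.11 in replicates 4 and 6, 4.11 in replicate 7 and 4.00 to 4.38 in the other 4. The split was seen in the data and was not tested.

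**Figure D3:**
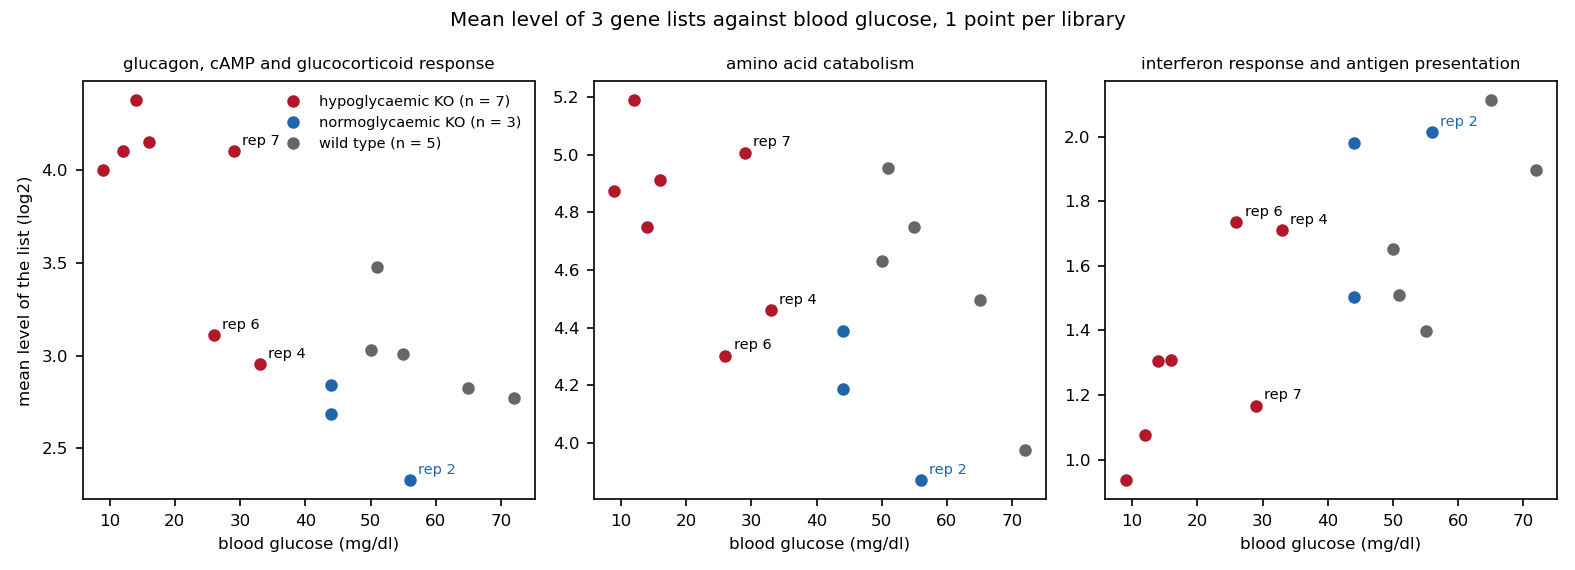
Mean level of 3 gene lists (log2, y axis) against the pup's blood glucose in mg/dl (x axis), 1 point per library, in red for hypoglycaemic KO, blue for normoglycaemic KO and grey for wild type. In the left panel hypoglycaemic KO replicates 4 and 6 sit at 2.95 and 3.11 near the normoglycaemic libraries, while replicate 7 sits at 4.11 with the pups of lowest glucose.

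Most enzymes that turn amino acids into glucose and nitrogen into urea lay on the higher side. Of 38 members of amino acid catabolism, 28 lay above 0 with a median of 0.45, 19 at an unadjusted p under 0.05 on the higher and 4 on the lower side. The mean level of the list was 4.30 to 5.19 in hypoglycaemic KO, against 3.87 to 4.39 in normoglycaemic KO, and these ranges overlapped. Aspg, an asparaginase, read 5.03 to 5.97 in hypoglycaemic KO, against 4.51, 3.63 and 3.91 in normoglycaemic KO (1.49 ± 0.29, adjusted p = 0.0642). Mat1a, which makes S-adenosylmethionine, differed by 1.21 ± 0.32 and Slc38a2, an amino acid transporter, by 0.90 ± 0.24 (adjusted p = 0.0972 each).

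Of 12 urea cycle and ammonia genes, 10 lay above 0 with a median of 0.61, 7 at an unadjusted p under 0.05 on the higher and 2 on the lower side. Cps1, the entry enzyme of the cycle, read 5.27 to 6.72, against 5.14, 4.13 and 4.67 (1.49 ± 0.46, adjusted p = 0.126), and Asl, argininosuccinate lyase, differed by 1.27 ± 0.37 (adjusted p = 0.115). Glul, which fixes ammonia in glutamine, was 0.55 ± 0.17 higher (adjusted p = 0.128) and Glud1, glutamate dehydrogenase, differed by -0.68 ± 0.21 (adjusted p = 0.126). Otc, ornithine transcarbamylase of the cycle itself, named after its value was seen, was on the lower side (-1.41, adjusted p = 0.173). Without the 3 acinar-rich libraries the medians were 0.34 for amino acid catabolism and 0.48 for the urea cycle.

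ATF4 targets, the genes of the amino acid and stress response, had 22 of 32 members above 0 with a median of 0.25, 7 at an unadjusted p under 0.05 on the higher and 2 on the lower side. Sesn2, a leucine sensor, differed by 0.59 ± 0.18 (adjusted p = 0.119). Fgf21, a fasting hormone of the liver and also an ATF4 target, was well above background in 4 of 7 hypoglycaemic KO livers, against 3 of 3 normoglycaemic ones, so that its size is uncertain: it differed by -2.81 ± 0.97 (adjusted p = 0.149), and by -1.35 with normexp background correction. Within slide 1 the median of the list was 0.0062, and within slide 2 it was 0.46.

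Lipid genes leaned to the lower side. The call was Angptl8, a liver hormone that feeding and insulin induce and that helps to hold back lipoprotein lipase (probe chr9:21641729-21641788, mm9). It read 1.81 to 3.17 with a median of 2.11 in hypoglycaemic KO, against 4.76, 4.73 and 5.27 in normoglycaemic KO. Angptl8 fell by 2.50 ± 0.41 (5.67-fold lower, adjusted p = 0.0484), with no overlap and a wild-type mean of 3.76 ± 0.79 (SD, n = 5). Angptl4, the fasting-induced member of the family, lay the other way at 6.50 to 7.25, against 6.25, 5.02 and 6.02 (1.09 ± 0.26, adjusted p = 0.0865), a difference of 0.72 without normoglycaemic KO replicate 2. Of the 29 apolipoproteins, lipases and ANGPTL genes, 5 lay above 0, and the median was -0.19.

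Cholesterol synthesis had a median of -0.56, the lowest of the liver lists here and in 24 of 31 settings. Of 26 members 6 lay above 0, with 2 at an unadjusted p under 0.05 on the higher and 14 on the lower side, and the mean level was 1.51 to 2.22 in hypoglycaemic KO, against 2.04 to 2.50 in normoglycaemic KO. Cyp51, lanosterol demethylase, read -2.95 to -1.01, against -1.10, -0.03 and -0.87 (-1.67 ± 0.49, adjusted p = 0.115). Fdft1, squalene synthase, differed by -0.91 ± 0.26 (adjusted p = 0.11). The list's median was -0.32 without normoglycaemic KO replicate 2 and -0.30 without the acinar-rich libraries, and other lists then lay lower (cell cycle at -0.36 and P450s at -0.37).

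Genes of fat synthesis were divided. Of 24 lipogenic genes, 9 lay above 0 (median -0.19), 4 at an unadjusted p under 0.05 on the higher and 9 on the lower side. Fasn, fatty acid synthase, differed by -0.50 ± 0.24 (adjusted p = 0.268), Elovl6, an elongase, by -0.75 ± 0.22 (adjusted p = 0.115) and Fads1, a desaturase, by -0.94 ± 0.27 (adjusted p = 0.112). Acacb, the acetyl-CoA carboxylase whose product restrains entry of fat into mitochondria, lay higher at 2.79 to 4.10, against 2.07, 1.27 and 1.98 (1.66 ± 0.47, adjusted p = 0.105), as did Gpam, of glycerolipid synthesis (0.64 ± 0.16, adjusted p = 0.0941).

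Fat burning and ketone genes lay on the lower side or level. Of 35 members of fatty acid oxidation, 12 lay above 0 (median -0.24), 3 at an unadjusted p under 0.05 on the higher and 11 on the lower side. Cpt1a, which admits long-chain fat to mitochondria, read 5.88 to 6.77, against 6.28, 6.05 and 6.53, a difference of -0.01 ± 0.18 (adjusted p = 0.991), and its sign turned within slide 1. Bdh1, which makes beta-hydroxybutyrate, read 3.78 to 5.91, against 6.04, 6.84 and 6.69 (-1.50 ± 0.46, adjusted p = 0.12). Fabp1, the liver fatty acid carrier, differed by -1.06 ± 0.37 (adjusted p = 0.147), while the receptor Ppara was 0.39 ± 0.12 higher (adjusted p = 0.124). Of 9 ketone genes 2 lay above 0 (median -0.36), 0 on the higher and 4 on the lower side at an unadjusted p under 0.05.

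**Figure D4:**
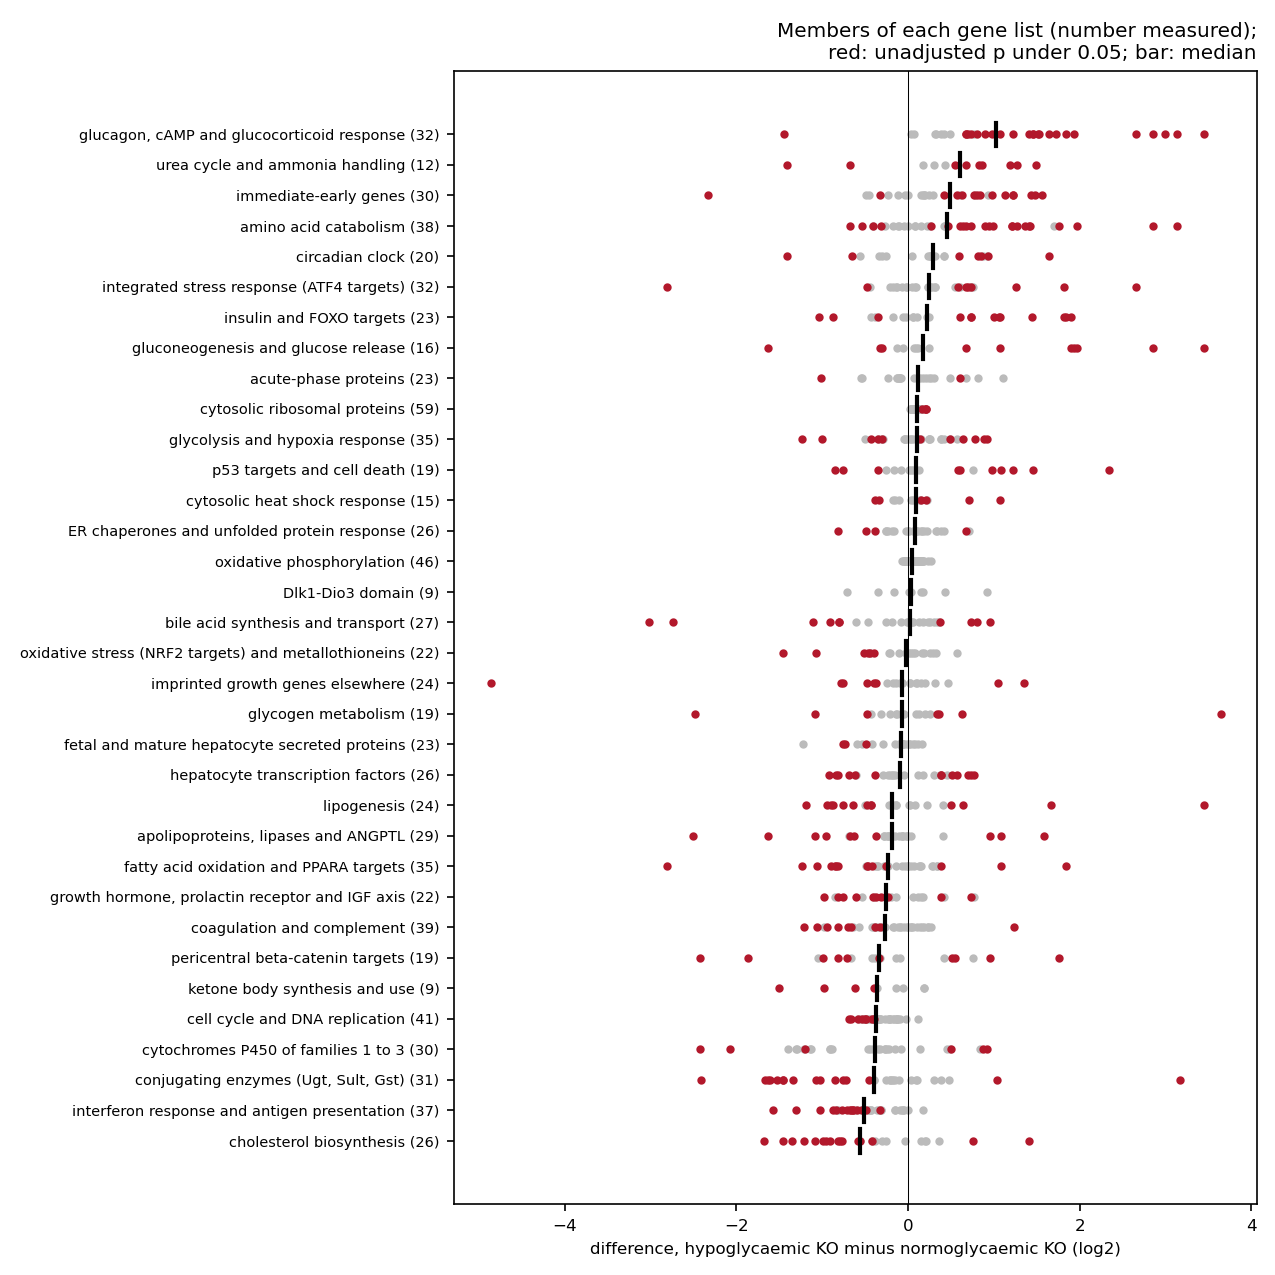
Difference between hypoglycaemic and normoglycaemic KO (log2, x axis) of each measured member of 34 liver gene lists, ordered by the list's median (black bar), with members at an unadjusted p under 0.05 in red. The glucagon, cAMP and glucocorticoid list has the highest median, 1.03, and cholesterol biosynthesis the lowest, -0.56, a rank that it loses in 7 of 31 other settings.

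Growth signalling was on the lower side. Of 22 members of the growth hormone, prolactin receptor and IGF axis, 8 lay above 0 (median -0.25), 2 at an unadjusted p under 0.05 on the higher and 8 on the lower side. Igf1, the circulating growth factor, read 0.02 to 1.66, against 1.16, 1.38 and 1.66 (-0.82 ± 0.35, adjusted p = 0.217); 4 other Igf1 probes gave -1.11 to -0.23. Igf2, the fetal growth factor, differed by -0.76 ± 0.23 (adjusted p = 0.12), Igfals, which holds IGF in plasma, by -0.98 ± 0.31 (adjusted p = 0.131), and Ghr, the growth hormone receptor, by -0.60 ± 0.19 (adjusted p = 0.131). Prlr, the prolactin receptor, differed by -0.85 ± 0.47 (adjusted p = 0.348).

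Conjugating enzymes lay mostly on the lower side. Of 31 conjugating enzymes 8 lay above 0 (median -0.39), 2 at an unadjusted p under 0.05 on the higher and 14 on the lower side, and 10 were without overlap on the lower side, where 3.99% of everything tested were. Ugt2b34, a glucuronosyltransferase, read 2.97 to 4.78, against 5.39, 5.92 and 5.63 (-1.61 ± 0.38, adjusted p = 0.0865), and Gsta2, a glutathione transferase, differed by -1.46 ± 0.37 (adjusted p = 0.0964). Members of these families are alike in sequence, and probes may read more than 1 of them; a second Gstt1 probe gave -0.09 where the first gave -1.02. Of 30 cytochromes P450, 7 lay above 0 (median -0.38), but 3 had an unadjusted p under 0.05 on the higher and 3 on the lower side. These counts are near the shares over everything tested, 9.34% and 10.1%. Cyp1a2, a pericentral drug-metabolising enzyme, read -5.43 to -1.86, against -0.96, -0.88 and -1.25 (-2.42 ± 0.71, limma's adjusted p = 0.114).

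Among coagulation and complement factors, 12 of 39 were above 0 (median -0.27), with C8a, of the membrane attack complex, at -1.21 ± 0.37 (adjusted p = 0.12) and Pros1, an anticoagulant, at 1.23 ± 0.36 (adjusted p = 0.112). Bile acid genes had no lean (15 of 27 above 0, median 0.02). Slc51b, a subunit of the basolateral bile acid exporter, differed by -3.01 ± 0.73 (adjusted p = 0.0879), and Cyp7a1, the pace-setting enzyme of bile acid synthesis, by 0.25 ± 0.43 (adjusted p = 0.787). Afp differed by -0.05 ± 0.08 (adjusted p = 0.748) and Alb by -0.08 ± 0.09 (adjusted p = 0.66).

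Acute-phase proteins had 13 of 23 members above 0 (median 0.12), with Saa1, serum amyloid A, at -0.13 ± 0.24 (adjusted p = 0.805). Chaperones and the unfolded protein response were divided, 17 of 26 above 0 (median 0.09). Herpud1, which helps clear misfolded proteins from the endoplasmic reticulum, differed by 0.67 ± 0.20 (adjusted p = 0.117), while Sel1l, its partner in that clearance, read 0.84 to 1.59 in hypoglycaemic KO, against 2.03, 2.20 and 1.96 in normoglycaemic KO (-0.81 ± 0.15, adjusted p = 0.0642). The chaperone P4hb and the factor Xbp1, which switches on chaperone genes, differed by -0.49 ± 0.13 and -0.39 ± 0.11 (adjusted p = 0.0972 and 0.115).

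Among transcription factors, Tbx3, a pericentral factor downstream of beta-catenin, read 0.40 to 1.17 in hypoglycaemic KO, against 1.71, 1.36 and 1.43 in normoglycaemic KO (-0.82 ± 0.16, adjusted p = 0.0642), and of 19 pericentral beta-catenin targets 6 lay above 0 (median -0.34), 4 at an unadjusted p under 0.05 on the higher and 6 on the lower side. Rnf43, a Wnt feedback ligase, differed by -0.99 ± 0.21 (adjusted p = 0.0707). The 4 on the higher side, named after their values were seen, were Glul (0.55), Oat (1.76), Cyp27a1 (0.95) and Slc1a4 (0.51). The list's mean level overlapped, at -0.30 to 0.44 in hypoglycaemic KO, against 0.22 to 0.56 in normoglycaemic KO. Prox1 and Foxa3, factors of the hepatocyte lineage, differed by -0.69 ± 0.15 and -0.92 ± 0.25 (adjusted p = 0.077 and 0.099). Nr5a2, a nuclear receptor of bile acid and cholesterol genes, was 0.74 ± 0.19 higher (adjusted p = 0.0972).

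Immediate-early genes lay mostly higher, with 7 exceptions that include Egr1. Of 30 members, 23 lay above 0 (median 0.49), 13 at an unadjusted p under 0.05 on the higher and 2 on the lower side. Egr1, a growth factor-induced factor, read -0.05 to 2.21 with a median of 0.65 in hypoglycaemic KO, against 3.28, 2.76 and 3.44 in normoglycaemic KO (-2.33 ± 0.47, 5.03-fold lower, adjusted p = 0.0687). Fos, usually induced along with it, read -1.95 to 0.39, against -1.07, -2.26 and -2.77 (1.48 ± 0.58, adjusted p = 0.187, groups overlapping). On the higher side 4 members were without overlap, where 4.87% of everything tested were. Among them were Gadd45b, Klf6 and Ccn2, with differences of 1.57 ± 0.38, 0.77 ± 0.19 and 1.44 ± 0.38 (limma's adjusted p from 0.088 to 0.0972). They were named for a small p, so nothing is read from their separation.

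Of 20 clock genes 14 lay above 0 (median 0.29). Per1, which glucocorticoids also induce, differed by 1.64 ± 0.36 (adjusted p = 0.0775), Arntl, the activator of the loop, by 0.94 ± 0.27 (adjusted p = 0.112) and Dbp, a clock output, by -1.41 ± 0.40 (adjusted p = 0.109). Second probes turned the sign of 2 clock genes: Per1 gave -0.08 and Rora -0.57 where its first probe gave 0.81. Among p53 targets, 13 of 19 lay above 0 (median 0.10), led by Trp53inp1, an autophagy and stress gene, at 1.87 to 4.94, against 1.50, 1.10 and 1.70 (2.35 ± 0.58, adjusted p = 0.0908).

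Of 41 cell cycle and replication genes 1 lay above 0 (median -0.38), 0 at an unadjusted p under 0.05 on the higher and 8 on the lower side. Sizes were small: Aurka, a mitotic kinase, differed by -0.53 ± 0.23 (adjusted p = 0.232) and Mcm6, of the replicative helicase, by -0.58 ± 0.26 (adjusted p = 0.247). Mki67 differed by -0.03 ± 0.16 (adjusted p = 0.944), and its sign turned within slide 2. The list read 1.56 to 2.56 in hypoglycaemic KO, against 2.44 to 2.52 in normoglycaemic KO, and replicates 4 and 6 gave 2.45 and 2.56. All 59 ribosomal protein genes lay above 0 by small amounts (median 0.11), and the median was 0.0059 to 0.13 over 31 settings. Of the 59, 4 had an unadjusted p under 0.05, against 9.34% of everything tested on the higher side. Of 46 genes of oxidative phosphorylation 0 had an unadjusted p under 0.05.

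Most genes of interferon response and antigen presentation leaned lower in the hypoglycaemic group. Of 37 members 2 lay above 0 (median -0.51), 0 at an unadjusted p under 0.05 on the higher and 15 on the lower side. The list's mean level overlapped, at 0.94 to 1.74 in hypoglycaemic KO, against 1.50 to 2.01 in normoglycaemic KO. Without overlap on the lower side were 3 members, where 3.99% of everything tested were. Irf1, an interferon-induced factor, read 2.08 to 2.76 in hypoglycaemic KO, against 3.08, 3.18 and 3.44 in normoglycaemic KO (-0.88 ± 0.15, adjusted p = 0.0642), without overlap and with a wild-type mean of 3.12 ± 0.21 (SD, n = 5). Igtp, an interferon-gamma GTPase, differed by -1.57 ± 0.43 (adjusted p = 0.102) and Stat2, which carries the type I interferon signal, by -0.64 ± 0.15 (adjusted p = 0.0865). Without normoglycaemic KO replicate 2 the median was -0.35.

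Markers of natural killer and cytotoxic T cells lay on the same side as this list: 3 of 23 lay above 0 (median -0.35), with a mean level of -2.02 to -1.24 in hypoglycaemic KO, against -1.48 to -1.27 in normoglycaemic KO and -1.14 to -0.84 in wild type, and Gzmb at -0.60 ± 0.19 (adjusted p = 0.13). Granulocyte markers lay higher, 21 of 24 above 0 (median 0.24), at 3.93 to 4.26, against 3.68 to 4.05, with Chil3 at 1.21 ± 0.35 (adjusted p = 0.112); the median was 0.11 without normoglycaemic KO replicate 2 and 0.10 within slide 2. In whole liver, fewer cells of a type and less RNA per cell cannot be told apart, and the part of these markers in the gene differences was not tested. Erythroid markers overlapped (3.83 to 4.46 in hypoglycaemic KO, 4.03 to 4.28 in normoglycaemic KO). Hbb-bt differed by 0.02 ± 0.07 (adjusted p = 0.923) and turned sign with quantile scaling, and Alas2, of haem synthesis, differed by 0.18 ± 0.13 (adjusted p = 0.487).

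All 24 acinar markers lay below 0 (median -1.22) with 0 at an unadjusted p under 0.05, and the sign turned to 1.29 without normoglycaemic KO replicate 2. Without the 3 acinar-rich libraries 0 genes passed in limma (2956 at an unadjusted p under 0.05, 1274 higher and 1682 lower), and without normoglycaemic KO replicate 2 alone 1 passed (2957). Ppp1r3c and Angptl8 kept their direction in all 31 settings, at -2.81 to -2.18 and -2.98 to -2.23. Both were picked as calls and their KO groups did not overlap, so fits to fewer of these libraries had to keep the sign. The kept direction is a description and no support. The part of acinar tissue in the other differences was not tested.

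**Figure D5:**
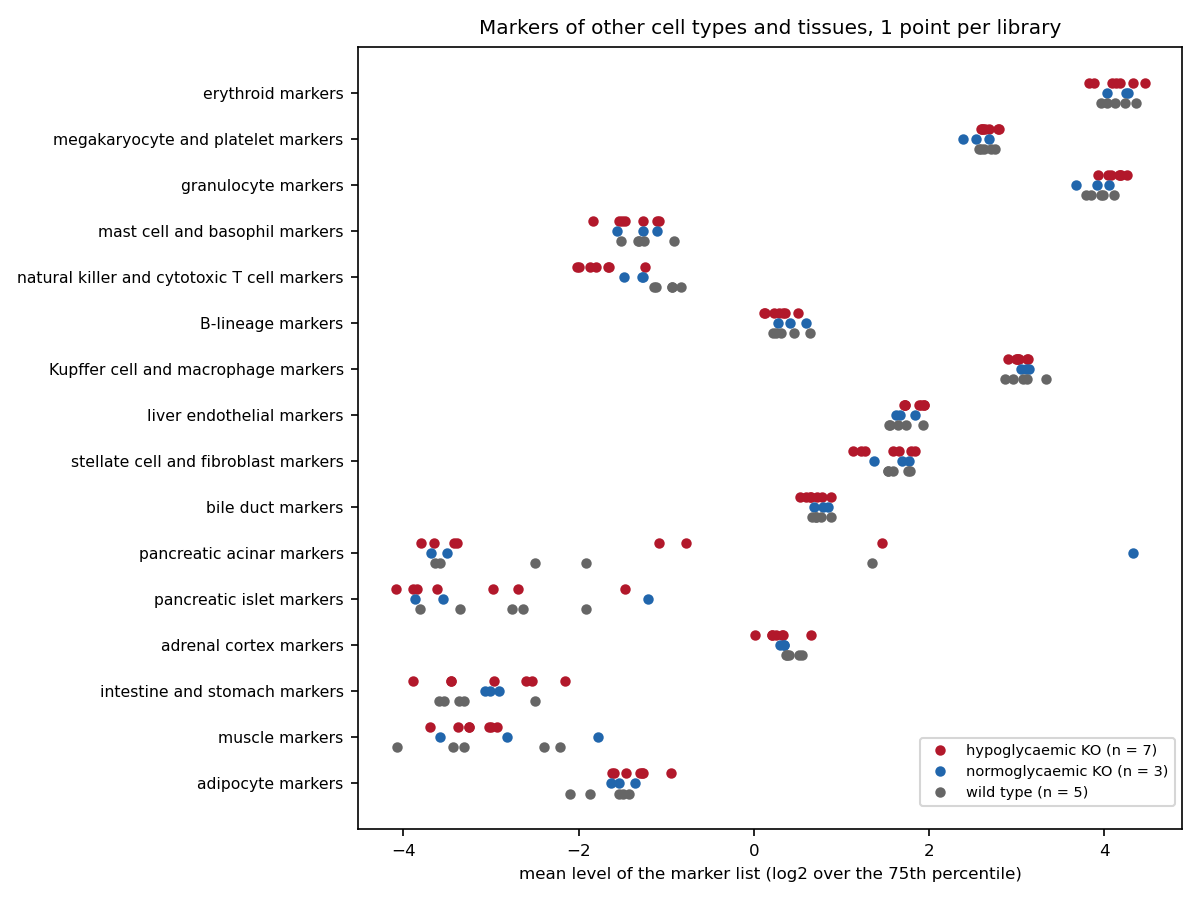
Mean level of 16 lists of marker genes of other cell types and tissues (log2 over the 75th percentile, x axis), 1 point per library, for hypoglycaemic KO (red), normoglycaemic KO (blue) and wild type (grey). Acinar markers reach 1.46 in hypoglycaemic KO replicate 3, 4.34 in normoglycaemic KO replicate 2 and 1.35 in wild-type replicate 2, while erythroid markers overlap between the groups.

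The remaining called genes with a symbol were of other kinds. Ip6k2, an inositol hexakisphosphate kinase, read -0.08 to 0.85 in hypoglycaemic KO, against -0.89, -1.08 and -0.47 in normoglycaemic KO, and rose by 1.25 ± 0.20 (2.38-fold, adjusted p = 0.0484). Mapk15, an atypical MAP kinase, read -4.15 to -3.63 in hypoglycaemic KO, against -4.52, -4.99 and -4.46 in normoglycaemic KO, dim signals throughout, and rose by 0.80 ± 0.12 (1.74-fold, adjusted p = 0.0443), or by 0.35 with normexp background correction. Agap2, a GTPase-activating protein, fell by 0.71 ± 0.11 (1.63-fold lower, adjusted p = 0.046).

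Prl7b1, of the prolactin family and known from placenta, was below background in all 7 hypoglycaemic KO and all 5 wild-type livers and above it in all 3 normoglycaemic KO livers, where it read -4.56, -3.03 and -4.03. In the reported fit it was at least 2.62-fold lower in hypoglycaemic KO (limma's adjusted p = 0.0459). It entered the test through those 3 arrays alone, so that its p is no support. The bound holds for that fit only, since over 31 settings the log2 difference ran from -4.00 to -0.92. A further 8 called transcripts lay outside the rule for names. Those named next were chosen after their values were seen. Syt4, a synaptotagmin, was above background in 6 hypoglycaemic KO, 0 normoglycaemic KO and 2 wild-type livers. In the reported fit it was at least 2.02-fold higher (limma's adjusted p = 0.033). Again the p is no support, since the hypoglycaemic livers brought Syt4 into the test. Over 30 settings its log2 difference ran from 0.49 to 2.94, so this bound too holds for that fit only. The unannotated transcripts AK170517 and A130072N09Rik differed by 1.64 ± 0.22 and -2.06 ± 0.29 (adjusted p = 0.033 each).

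The genes next in line by p all had limma's adjusted p = 0.0642. On the higher side, Eif1, a factor that helps ribosomes find the start codon, read 6.79 to 7.57 in hypoglycaemic KO, against 6.40, 6.09 and 6.47 in normoglycaemic KO (0.89 ± 0.16), and the nuclear receptor Nr2c2 differed by 0.46 ± 0.08. On the lower side, Lrrc4c, a neuronal adhesion protein, read -4.39 to -2.99, against -1.97, -2.09 and -1.62 (-1.80 ± 0.31). Hes6, a relative of the Notch-induced repressors, differed by -0.64 ± 0.12, Lhfpl2 by -0.70 ± 0.12, the zinc finger gene Zfp54 by -0.67 ± 0.12, Mtmr10 by -0.60 ± 0.11, Siah3 by -0.57 ± 0.10 and Wdr5b by -0.54 ± 0.10. Both KO groups were apart for each of these, as in 8.86% of everything tested. These genes were picked for a small p, so nothing is read from that separation.

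Large differences also occurred among genes that did not pass. Phlda2, an imprinted growth restrainer, was above background in 2 of 7 hypoglycaemic KO livers and in 3 of 3 normoglycaemic ones, at -8.08 to -2.42, against -1.11, -0.52 and -2.17. Its size is uncertain for that reason: the difference was -4.86 ± 1.04 (adjusted p = 0.0756), and -2.10 with normexp background correction. Adra2a, an adrenaline receptor, read 0.40 to 4.49, against -0.42, -1.85 and -0.44 (3.87 ± 0.85, 14.6-fold, adjusted p = 0.077). Slc10a6, a steroid sulphate carrier, read -3.65 to 0.68, against -3.85, -4.41 and -5.05 (3.49 ± 0.96, adjusted p = 0.102). Peg3, an imprinted factor, was 1.36 ± 0.32 higher (adjusted p = 0.0865), and Peg10 differed by -0.78 ± 0.19 (adjusted p = 0.0893).

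Each gene of the Dlk1-Dio3 domain, which holds the deletion, was read by its brightest probe. On these probes 6 of 9 genes lay above 0 (median 0.03) and 0 had an unadjusted p under 0.05. Meg3, the domain's maternal non-coding RNA, differed by -0.17 ± 0.14 (adjusted p = 0.54) and turned sign within slide 2. Other Meg3 probes gave -0.31 ± 0.19 and -0.97 ± 0.31 (limma's adjusted p = 0.4255 and 0.147). Dlk1, the domain's paternal growth gene, differed by 0.01 ± 0.18 (adjusted p = 0.985), and its sign turned with quantile scaling and with the deposited values. Mirg differed by 0.92 ± 0.58 (adjusted p = 0.403), with the library labelled hypoglycaemic KO replicate 2 at 0.89; without that library it was 0.51.

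For genes with a small p between the KO groups, the wild-type mean mostly lay between both KO means. This held for 14 of the 15 called genes and for 83.4% of the 5352 genes at an unadjusted p under 0.05, against 45.1% of everything tested. The genes were picked for the distance between the KO groups, which by itself favours another mean between them, so these shares are a description.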

How the data were processed

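Per the file headers, the intensity of each spot came from Agilent Feature Extraction 10.10.1.1, already background-subtracted and detrended, with probes placed on mm9 (NCBI37). The authors' deposited log2 values, for which the submitters' processing notes name limma, were an alternative. Set against the scanner values, they tracked the spot median with its background left in. Their column medians run from 7.799 to 7.803, and the method of scaling between arrays stays unknown.

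Levels are log2 of the processed signal, averaged per probe, minus each array's 75th percentile. Outlier-flagged spots were left out, so that 992 genes lack a value on some array. The fit took the 41206 probes with signal well above background on 3 or more arrays, and the brightest probe stood for each of 27599 genes and transcripts, 16727 of them with a gene symbol. A mean for each of the 3 groups was estimated with limma 3.58.1, R 4.3.3 (12 residual and 1.83 prior degrees of freedom), and the fit was tested on simulated data. Wild-type livers lent their spread to the contrast. They also counted in the filter on dim probes and in the choice of the brightest probe. A call needed a p under 0.05 after Benjamini-Hochberg adjustment across the whole table. Single measures were compared by 2-sided exact permutation over 120 splits (smallest p 0.0083). Each library is 1 pup, and pups of 1 litter may be alike, which the labels do not record. Replicate numbers were not taken as pairs, since no label states that they pair the pups. Deviations of same-numbered KO livers correlated at 0.16, 0.07 and -0.15. No other pairs were set beside these values, so they cannot decide it. "At least" folds set the dimmest signal well above background in place of a group below it.

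The rule for names took up to 12 genes per direction by p and 6 by size with a proper symbol and signal, up to 4 members per list at an unadjusted p under 0.05, and 37 genes whatever their result. Some of the genes it names are not reported here. The groups, gene lists and names were chosen with earlier results of these data known. Promoters and microRNAs are RefSeq's, of GRCm38.p6. Figures were drawn with matplotlib 3.10.9 in Python 3.11.15.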

Additional observations from a re-analysis of the deposited data

Results flagged for a closer look

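In groups of 7 and 5 libraries, 355 values were screened for a library far from the rest of its group by Dixon's test, and 17 (4.79%) were marked; chance alone marks about 1 in 20. Of these, 7 lay in wild-type replicate 2, one of the libraries rich in pancreatic acinar transcripts, and 4 in hypoglycaemic KO replicate 5.

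Among hypoglycaemic KO livers, Depp1 was 6.52 in replicate 5, with the next library at 5.59, so the highest value of this called gene stood apart, and Klf6 was 3.96 there (next 3.28). The mean levels of clock genes and of immediate-early genes were also highest in replicate 5, at 0.51 and 1.25, with the next at 0.11 and 0.57. Mtmr10 was 0.19 in replicate 4 (next -0.09). Prlr was 0.41 in replicate 2 (next -1.22), the library whose Mirg level lay near wild type. Cyp3a13 was 5.78 in replicate 7 (next 5.10), where the acute-phase list averaged 4.09 (next 3.34). NRF2 targets and metallothioneins averaged 5.06 in replicate 3 (next 4.56).

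Among wild-type livers, replicate 2 was lowest for G6pc at 6.26 (next 7.16), for Per1 at 3.08 (next 3.61) and for Sesn2 at 1.16 (next 1.59). It was highest for Fasn at -1.53 (next -2.34), Prlr at 1.17 (next 0.09), Gsta2 at 1.08 (next 0.03) and Pklr at -0.59 (next -1.87). Replicate 4 was lowest for Fcgr1 at -0.34 (next 0.13).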

How the results depend on the processing

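The count of called genes moved with nearly every setting, from 15 in the reported fit. It was 0 without the filter on dim probes (5342 at an unadjusted p under 0.05), with the slide as a block (5395) and within slide 1 (2592). With the replicate block the count was also 0 (6161), though no label states that the numbers pair the pups. Without the 3 acinar-rich libraries, a setting added after the data were seen, the count was 0 (2956). It was 2 over the 10 KO arrays alone, 3 within slide 2, 9 with the mean over a gene's probes, 31 with the deposited values, 35 with sex read from Y-linked genes as a term, 109 with a stricter filter, 147 with normexp background correction, 178 with an intensity trend and 1973 with array weights. Leaving out 1 library gave 0 to 974 calls: 974 without hypoglycaemic KO replicate 4, 306 without wild-type replicate 2, and 6 or fewer without any other except wild-type replicate 5 (15). Array weights, the trend and sex as a term kept all 15 calls; slide row as a block kept 12 of them and quantile scaling 15. The cause of these shifts was not tested. Fits within a slide also hold fewer arrays.

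The 5352 genes at an unadjusted p under 0.05 became 2592 within slide 1, 2346 within slide 2, 2956 without the acinar-rich libraries and 2957 to 6127 when 1 library was left out, the lowest without normoglycaemic KO replicate 2. The replicate block gave 6161. List medians kept their sign in 1524 of 1580 recomputed values, and of 133 named genes at an unadjusted p under 0.05, 0 changed sign. These genes were picked by their p in the same libraries, which by itself favours a kept sign, so nothing is read from it.

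Genes near 0 did change sign. Cpt1a was 0.204 within slide 1, 0.066 with sex and 0.024 with the replicate block, and ran from -0.122 to 0.114 when 1 library was left out. Gys2 was 0.014 within slide 1. Saa1 ran from -0.324 to 0.113 over the left-out libraries. Mki67 and Meg3 were each 0.065 within slide 2, and Mki67 ran from -0.088 to 0.060 over the left-out libraries. Hbb-bt was -0.023 with quantile scaling, -0.045 with the replicate block and -0.0084 without the acinar-rich libraries, and ran from -0.013 to 0.056 over the left-out libraries. Dlk1 was -0.059 with quantile scaling, -0.068 with the deposited values, -0.154 within slide 1, -0.052 with sex, -0.022 with array weights and -0.031 with the mean over probes, and ran from -0.147 to 0.118 over the left-out libraries. With 3 normoglycaemic livers, the number of arrays limits the precision of every value.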
